A study of Mus musculus with 12 samples.

Results

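The genes described here are 36 mouse genes of the apoptosis machinery: caspases, members of the Bcl2 family, death receptors with their adaptors, inhibitor-of-apoptosis proteins (IAPs) and proteins that leave the mitochondrial intermembrane space. They were taken as all probes whose RefSeq accession belongs to a listed gene symbol, and account for 36 of 32496 genes and 47 of 39429 probes on the array. Bax, Bbc3, Pmaip1, Fas and Apaf1 were not part of the list. RNA was measured in male C57BL/6J mice, in cells isolated from the testis and labelled germ cells or Sertoli cells, the somatic cells that support the germ cells. Each of the 12 one-colour arrays held 1 fraction of 1 mouse, which gave 4 groups of 3: knockout germ, control germ, knockout Sertoli and control Sertoli. The knockout mice lack TAp73, the full-length form of the p53-family transcription factor p73, per the labels. They were mouse 120 at 4 months of age and mice 86 and 72 at 8 months. The controls were mouse 99 at 5 months, titled WT, and mice 73 and 74 at 8 months, whose titles read het although their source name reads wildtype. No mouse had a drug treatment in the labels, and how the allele was made is not given in the sources used here.

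Apoptosis is run by caspases, proteases that are switched on by 2 routes. In the mitochondrial route, BH3-only proteins such as Bim (Bcl2l11) and Bik counter Bcl2-like guardians, so that Bak1 and its relatives open the outer mitochondrial membrane and Casp9 is activated. In the death-receptor route, ligands such as Fasl or TNF bind receptors that recruit Fadd, Tradd and Ripk1 and activate Casp8, with Cflar as a brake. In the testis, apoptosis removes surplus germ cells, and Sertoli cells clear their remains.

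The 250 bases upstream of the RefSeq start (build GRCm38.p6) were available for 32 of the 36 genes. They are printed 5′ to 3′ on the gene's strand for Tnfrsf12a, which had the largest genotype difference, for Bcl2l14 and Fasl, which differed most between fractions in favour of germ cells, and for Birc2, whose neighbour Birc3 differed between fractions in the opposite direction. Capitals mark matches to any of 4 motifs, each searched on both strands. They are the p53 family half-site, the AP-1 site, spelled TGANTCA, the binding site of TEAD factors, spelled GGAATG, and the cAMP-response half-site, spelled TGACG.

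Tnfrsf12a, chr17:23677450-23677699, minus strand: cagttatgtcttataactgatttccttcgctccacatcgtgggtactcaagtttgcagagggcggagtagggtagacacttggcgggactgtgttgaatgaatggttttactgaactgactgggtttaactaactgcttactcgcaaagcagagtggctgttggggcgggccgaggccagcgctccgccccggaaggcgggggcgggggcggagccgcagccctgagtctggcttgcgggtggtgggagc
Bcl2l14, chr6:134396079-134396328, plus strand: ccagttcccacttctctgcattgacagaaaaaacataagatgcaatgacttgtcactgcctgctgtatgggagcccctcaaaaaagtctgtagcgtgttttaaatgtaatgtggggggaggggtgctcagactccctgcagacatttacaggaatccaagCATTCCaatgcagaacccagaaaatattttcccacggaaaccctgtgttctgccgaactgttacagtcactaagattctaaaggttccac
Fasl, chr1:161788496-161788745, minus strand: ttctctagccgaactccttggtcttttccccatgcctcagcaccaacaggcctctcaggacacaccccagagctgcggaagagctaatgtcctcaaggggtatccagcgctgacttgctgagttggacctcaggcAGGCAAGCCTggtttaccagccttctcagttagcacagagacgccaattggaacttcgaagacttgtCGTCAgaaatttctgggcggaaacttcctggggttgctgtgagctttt
Birc2, chr9:7837058-7837307, minus strand: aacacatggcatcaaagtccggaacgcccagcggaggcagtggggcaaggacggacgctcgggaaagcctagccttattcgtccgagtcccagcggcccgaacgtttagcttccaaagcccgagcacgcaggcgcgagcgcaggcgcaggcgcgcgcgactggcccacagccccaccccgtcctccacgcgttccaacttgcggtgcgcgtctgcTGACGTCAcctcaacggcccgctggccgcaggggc

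The Tnfrsf12a window held none of the 4 motifs. The Bcl2l14 window held a TEAD match from -90 to -85 relative to the start. The Fasl window held a p53 family half-site from -115 to -106 and a TGACG match from -48 to -44. The Birc2 window held a TGACG match on each strand, from -35 to -31 and from -32 to -28, and the pair overlap. Bcl2l14 and Birc2 each have another listed start, not printed. Among all 32851 promoters in the table, 7.13% held a p53 family half-site, 6.75% an AP-1 site, 12.6% a TEAD site and 17.8% a TGACG half-site. The 32 genes here had 44 promoters in the table, of which 2 held a p53 family half-site (Fasl and Bmf), 0 an AP-1 site, 5 a TEAD site and 11 a TGACG half-site. A match is a description of letters and not of binding.

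All levels are log2 of the processed signal minus the array's 75th percentile, so a level of 0 is the 75th percentile of that array, and levels of different genes are not compared because probes differ in brightness. Tested probes had a signal well above background throughout at least 1 group of 3 arrays, and a gene was represented by its brightest tested probe. Of the 36 genes, 35 were tested among 25028 genes in all. Bcl2l10, a Bcl2-like guardian, reached no signal well above background on the 12 arrays. In all, 30 of the tested genes passed in all 4 groups. The other 5 passed through fewer groups: Casp12 through both Sertoli groups, Fasl through both germ groups, Hrk through knockout germ cells, Bcl2l14 through all but knockout Sertoli cells and Cflar through all but control germ cells. Differences were tested with limma on the 4 group means over all 12 arrays, with Benjamini-Hochberg adjustment over the 25028 genes and a threshold of 0.05 on the adjusted p. Errors beside differences are standard errors (SE) of that fit with 3 mice per group.

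The fractions and labels were checked first. In control mice, all 8 of 8 spermatocyte markers were lower in Sertoli cells than in germ cells, with a median log2 difference of -9.55. Of 11 Sertoli markers, however, 7 were lower and 2 higher in the fraction labelled Sertoli cells. Fshr, the receptor by which Sertoli cells sense follicle-stimulating hormone, had no signal well above background on the 6 Sertoli arrays. All 6 of 6 fibroblast and all 6 of 6 peritubular markers were higher there, with medians of 7.33 and 5.78. Fraction differences below therefore describe the fractions as labelled, and the part of these other cell types in them was not tested. For Trp73 itself, the gene targeted, the germ-cell level was -2.76, -2.56 and -3.29 on the arrays labelled knockout and -9.40, -3.63 and -4.15 on the arrays labelled control, where the lowest value, from mouse 99, was not well above background. Every array labelled knockout thus lay above every array labelled control (difference 2.86 ± 1.77, adjusted p 0.898). The same held in Sertoli cells, where the difference was 3.29 ± 1.77 (adjusted p 0.9996) and mouse 99 was again not well above background. Of 2 further Trp73 probes, 1 was well above background in mouse 99, at -4.28 in germ and -3.56 in Sertoli cells, and the other was not. The low value of mouse 99 therefore depends on the probe. On both further probes the values of the genotypes overlapped in each fraction. Whether the probes lie in the deleted sequence is not given in the sources used here, so knockout and control stand for the labels throughout, also in every direction given. The 75th percentile of signal was 1355 to 5350 across arrays, 64.1% to 78.9% of probes were well above background, and none were saturated. The small number of arrays limits the precision.

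In germ cells, 1 of the 35 genes differed between genotypes. Tnfrsf12a, which encodes the receptor Fn14 for the TNF-like ligand TWEAK, was higher in the knockout. Its level was -2.56, -2.93 and -2.64 in control mice 99, 73 and 74, and -0.68, 0.26 and 0.34 in knockout mice 120, 86 and 72. The groups did not overlap, and all 3 knockout arrays lay above all 3 controls. The difference was 2.68 ± 0.27, or 6.42-fold (95% confidence interval on the log2 scale 2.08 to 3.28), with an adjusted p of 0.0064. Knockout and control mice were paired on slides (120 with 99, 86 with 73 and 72 with 74), and the within-slide differences were 1.87, 3.20 and 2.97. In the background, 0.216% of all genes were called higher and 0.00400% lower in knockout germ cells. Tnfrsf12a passed in 12 of 19 alternative analyses, and leaving out the arrays of knockout mouse 86, knockout mouse 72, control mouse 99 or control mouse 73 ended the call (adjusted p 0.105, 0.0906, 0.0675 and 0.12).

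Because these are bulk samples, fewer cells of a type and less RNA per cell cannot be told apart. Markers of some somatic cell types stood higher in the same germ-cell arrays. Marker signals were summed before log2 was taken, so the brightest markers weigh most. For 6 fibroblast markers this sum ranged from 0.76 to 1.44 in control and from 1.57 to 2.13 in knockout germ cells. That of 6 peritubular markers ranged from 3.90 to 4.31 and from 4.63 to 4.97. Leydig markers ranged from 1.33 to 2.68 and from 2.84 to 3.71, and Sertoli markers from 6.13 to 6.39 and from 6.61 to 7.03. None of these 4 marker sums overlapped between the genotypes, whereas that of 12 macrophage markers, from 3.04 to 3.27 in control and from 3.27 to 3.39 in knockout germ cells, overlapped slightly. Positive differences were found for 6 of 6 peritubular, 6 of 6 Leydig, 10 of 11 Sertoli and 10 of 12 macrophage markers, and none of these passed. Among germ-cell markers, positive differences were held by 3 of 8 spermatogonial and by 1 of 8 spermatocyte, round-spermatid and elongating-spermatid markers each. The medians were -0.07, -0.14, -0.31 and -0.22, and none of these markers passed. Of the fibroblast markers, 5 of 6 had a positive difference and 1 passed the test, Pdgfra, with 1.25 ± 0.19 and an adjusted p of 0.0355. The part of these cells in the Tnfrsf12a difference was not tested. Tnfrsf12a was itself far brighter in the Sertoli fraction, at 4.71, 4.93 and 4.37 in control mice 99, 73 and 74 and at 4.50, 4.44 and 4.39 in knockout mice 120, 86 and 72. The Sertoli-fraction values of the genotypes overlapped, with a difference of -0.23 ± 0.27.

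**Figure D1:**
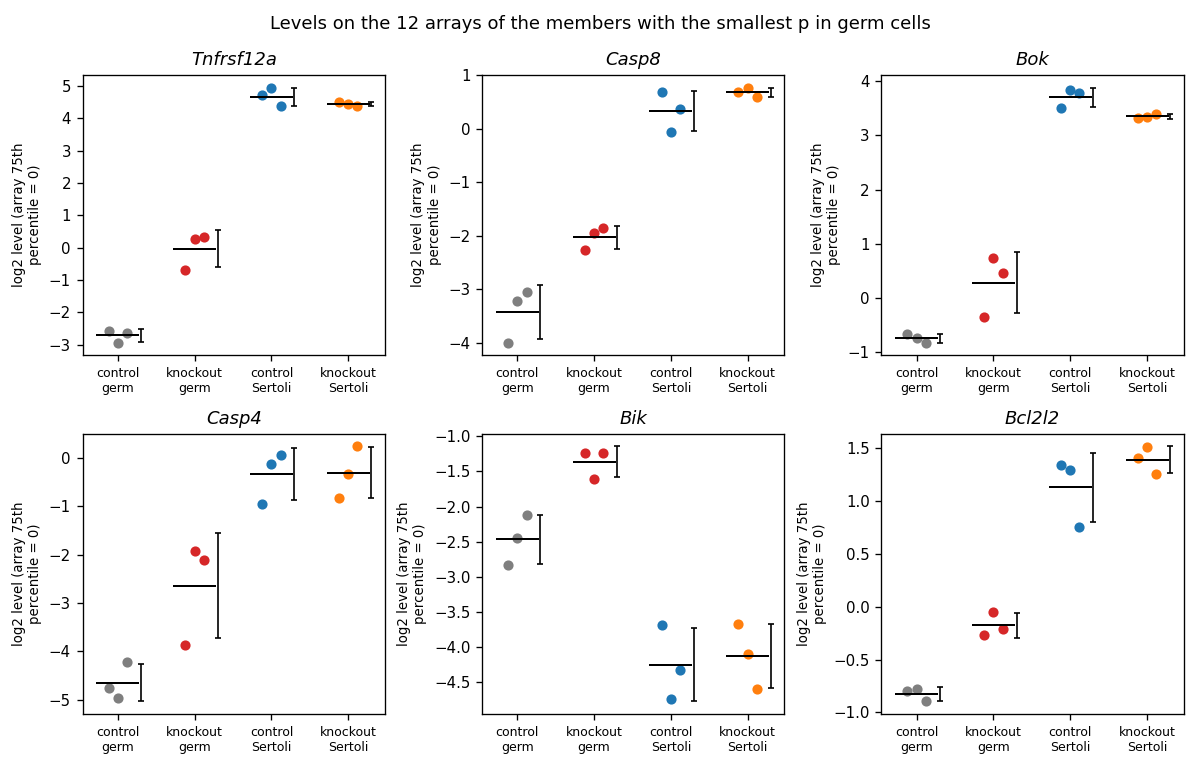
Log2 level relative to the array's 75th percentile for the 6 genes with the smallest p for genotype in germ cells. Points are mice, horizontal lines group means and bars SD, n = 3 per group. The 3 knockout germ points lie above the 3 control germ points in all 6 panels, and of these genes only Tnfrsf12a passed the test there.

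The 5 genes that followed had the next smallest p-values in germ cells, and none passed the threshold. Casp8, the initiator caspase of the death-receptor route, was at -4.00, -3.22 and -3.06 in controls and at -2.27, -1.95 and -1.86 in knockouts (difference 1.40 ± 0.27, adjusted p 0.0882). Casp4, a caspase activated by cytosolic lipopolysaccharide, was at -4.75, -4.97 and -4.22 in controls and at -3.88, -1.92 and -2.11 in knockouts (2.01 ± 0.50, adjusted p 0.193). In both genes the mice with the lowest knockout value (mouse 120) and the highest control value (mouse 74) were the same, and the groups did not overlap.

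Bok, a Bcl2 relative that resembles the pore formers, was at -0.67, -0.75 and -0.83 in controls and at -0.35, 0.73 and 0.45 in knockouts (1.02 ± 0.25, adjusted p 0.178). Bik, a BH3-only protein of the endoplasmic reticulum, was at -2.83, -2.45 and -2.13 in controls and at -1.24, -1.61 and -1.23 in knockouts (1.11 ± 0.32, adjusted p 0.272). Bcl2l2, the guardian Bcl-w, was at -0.80, -0.78 and -0.90 in controls and at -0.27, -0.05 and -0.21 in knockouts (0.65 ± 0.19, adjusted p 0.283). All 3 had knockout arrays above every control array. For Bok, mouse 120 lay closer to the controls than to the other 2 knockout mice.

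Over the 35 genes, 12 did not overlap between genotypes with knockout higher, against 6.57% of all genes, and 2 with knockout lower, against 9.19%. At an unadjusted p under 0.05, 12 were higher (6.14% of all genes) and 0 lower (1.23%). The median difference was 0.31, against -0.04 over all genes, and 24 of 35 lay above 0, against 45.4% of all genes. Hrk, whose genotypes overlapped, entered the unadjusted-p and above-0 counts only through its knockout germ arrays. The counts thus describe the tested genes and are no test of the list. The 2 genes with lower, non-overlapping knockout values were Bcl2l11 (Bim), with a difference of -0.49 ± 0.24 (adjusted p 0.740), and Bcl2l14, with -0.53 ± 0.31 (adjusted p 0.864). Hrk, a BH3-only protein, was well above background on all 3 knockout and on none of the 3 control germ arrays. It was tested only because its knockout germ arrays were bright, so these counts are no separate support. Its germ levels overlapped between genotypes, from -8.66 to -6.59 in control and from -6.84 to -5.63 in knockout mice. The bound for its mean knockout level was 1.94-fold that of controls, and the difference did not pass (adjusted p 0.363). Over the alternative analyses the log2 difference ranged from 0.55 to 2.61. For such a bound, the brighter group's mean is set against the dimmer arrays. There, the lowest signal that counted as well above background is used, or the probe's own signal where that was higher. Such a bound holds for the means of the main processing and is not a confidence limit.

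**Figure D2:**
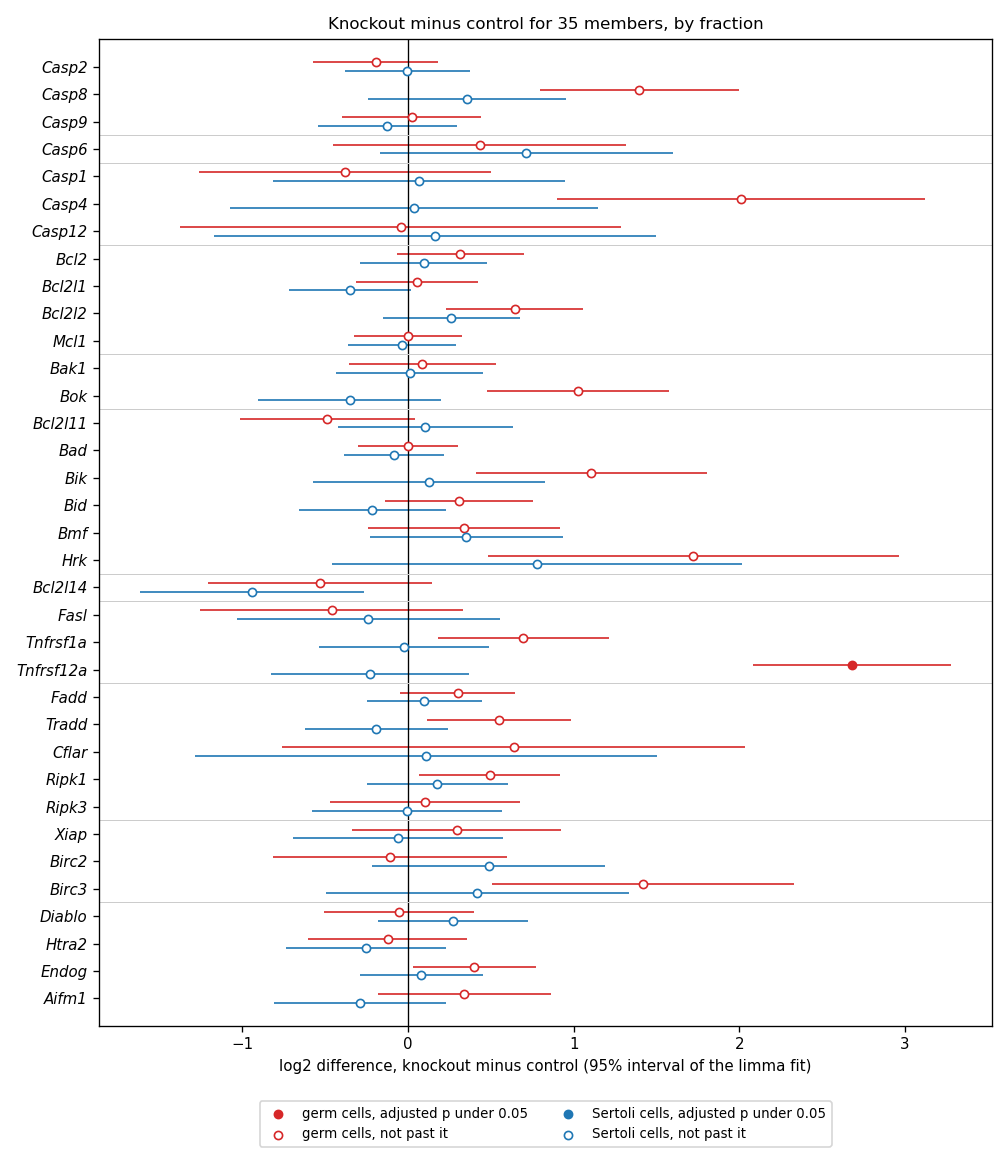
Knockout minus control difference on the log2 scale for the 35 tested genes, ordered by role, in germ cells (red) and Sertoli cells (blue). Points are limma estimates, bars their 95% confidence intervals with 3 mice per group, and filled points passed an adjusted p of 0.05. The only filled point is Tnfrsf12a in germ cells at 2.68.

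By role, the germ-cell medians were 0.70 for the 3 death ligands and receptors and 0.56 for the 2 pore-forming or pore-like Bcl2 members. The 5 adaptors and regulators of death receptors had 0.49, the executioner caspase 0.43, the 6 BH3-only genes 0.32 and the 3 IAPs 0.29. Medians were 0.18 for the 4 tested guardians, 0.14 for the 4 mitochondrial proteins and 0.02 for the 3 initiator caspases. The 3 inflammatory caspases (Casp1, Casp4 and Casp12) had -0.04 and Bcl2l14 had -0.53. All 5 adaptors (Fadd, Tradd, Cflar, Ripk1 and Ripk3) had positive differences and 0 of 5 passed. Mcl1, a short-lived guardian, had a difference of -0.00 ± 0.15, and Bad, a BH3-only protein regulated by phosphorylation, had -0.00 ± 0.14. The 95% confidence intervals were -0.33 to 0.33 for Mcl1 and -0.30 to 0.30 for Bad.

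In Sertoli cells no gene differed between genotypes: limma called 0 of the 35, and 0% of all genes, in either direction. At an unadjusted p under 0.05 it gave 0 higher (0.655% of all genes) and 1 lower (2.40%). That gene was Bcl2l14, at -6.88, -6.11 and -5.60 in control and at -6.83, -7.07 and -7.52 in knockout mice, the last 2 not well above background. Its difference was -0.94 ± 0.31 with an adjusted p of 0.9996, and the genotypes overlapped. The other 5 of smallest p were Bcl2l1 with -0.35 ± 0.17, Casp6 with 0.71 ± 0.40, Birc2 with 0.49 ± 0.32, Bok with -0.35 ± 0.25 and Bcl2l2 with 0.26 ± 0.19, all with an adjusted p of 0.9996. Non-overlapping values were found for 3 genes with knockout higher (1.87% of all genes) and 4 lower (4.83%). The median over the 35 genes was 0.04, against -0.10 over all genes, and 19 of 35 lay above 0, against 34.9%.

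The Sertoli value of Casp6, the executioner caspase of the list, came largely from 1 control array. Its level in Sertoli cells was 1.75, 1.98 and 0.23 in control mice 99, 73 and 74, and 1.98, 2.03 and 2.09 in knockout mice 120, 86 and 72. The within-slide differences were 0.23, 0.06 and 1.86, so the difference was largest on slide 3, which holds mouse 74. The 75th-percentile signal of that control Sertoli array was the lowest of the 12, at 1355. Of the 6 Sertoli arrays it also had the highest summed level of elongating-spermatid (1.82), round-spermatid (-1.10), macrophage (4.38), T and NK cell (2.10), fibroblast (9.28), peritubular (9.58), endothelial (3.45) and Leydig markers (3.15), and the lowest of Sertoli markers (5.06). The part of these in the Casp6 value was not tested.

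Whether the knockout effect differed between fractions was tested as an interaction, the effect in Sertoli cells minus that in germ cells. None of the 35 genes passed in either direction with limma, against 0.00400% of all genes in each. At an unadjusted p under 0.05, 0 were higher (0.515% of all genes) and 5 lower (4.08%). Tnfrsf12a had the smallest p, with -2.91 ± 0.38 and an adjusted p of 0.107. It was followed by Bok with -1.38 ± 0.35 (adjusted p 0.571), Casp4 with -1.97 ± 0.71 (0.947), and Casp8 with -1.04 ± 0.38, Tradd with -0.74 ± 0.28 (both 0.949) and Bik with -0.98 ± 0.45 (0.9995). The median over the 35 was -0.32, against -0.09 over all genes. These interactions share their arrays with the germ-cell comparison and are not separate evidence of it.

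The fractions differed in most of the genes. In control mice 25 were higher and 8 lower in Sertoli than in germ cells, where 39.8% of all genes were higher and 36.8% lower. In knockout mice 25 were higher (37.9% of all genes) and 7 lower (37.3%). The 25 higher and 7 of the lower genes were the same in both genotypes, and 0 were called in opposite directions. Casp12 and Fasl entered these counts through the fraction in which they were bright. The median difference was 2.32 in control and 1.90 in knockout mice, against 0.20 and 0.08 over all genes. Scaling each array by its median instead moved the median of all genes by 0.67 in control and 0.85 in knockout mice, and normexp background correction moved it by 0.57 in control mice. The share of all calls that were higher in Sertoli cells of control mice was 52.0%, and 62.9% and 64.6% under these settings. For the genes here it was 75.8%, 81.2% and 83.9%.

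**Figure D3:**
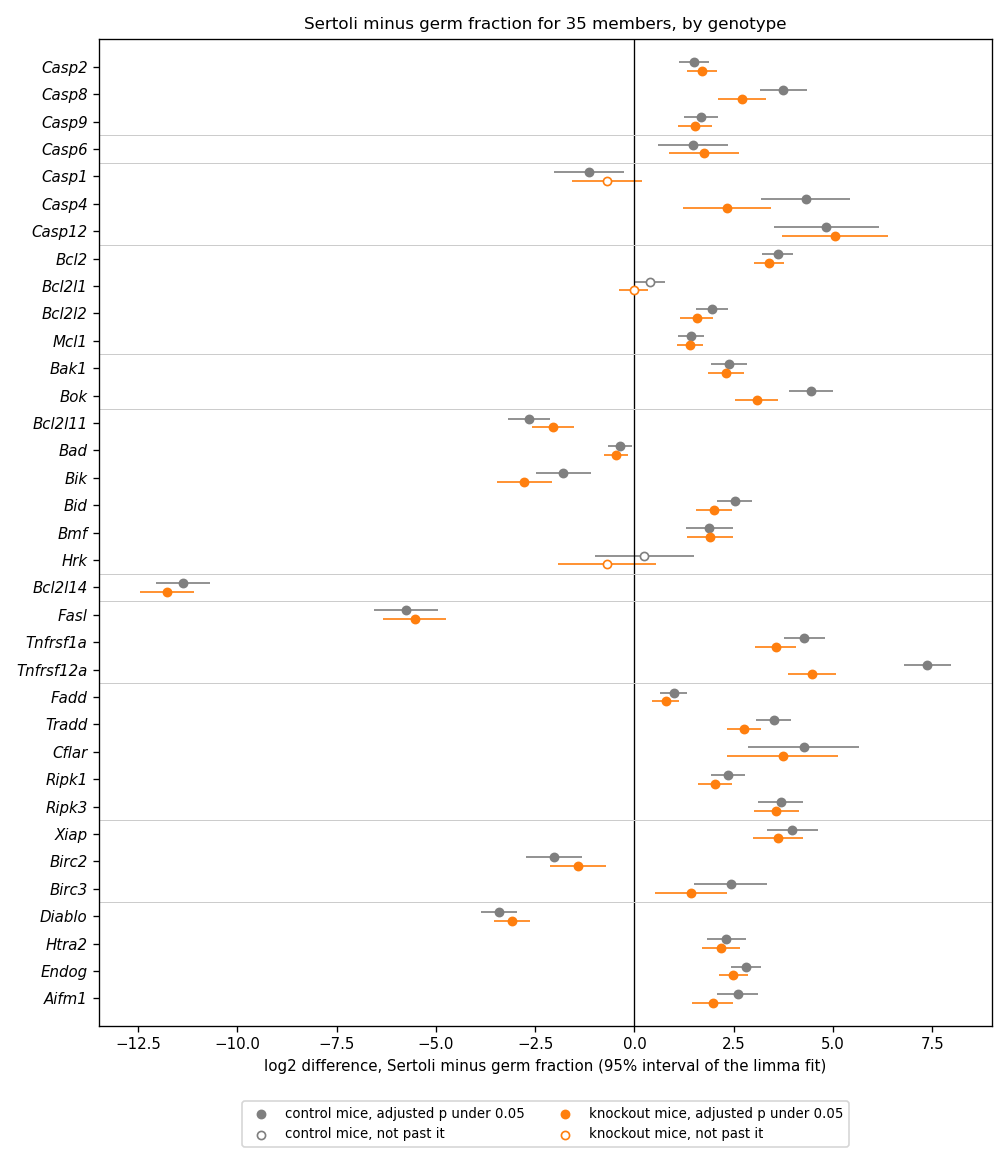
Sertoli minus germ difference on the log2 scale for the 35 tested genes, ordered by role, in control (grey) and knockout mice (orange). Points are limma estimates, bars their 95% confidence intervals with 3 mice per group, and filled points passed an adjusted p of 0.05. Most genes lie to the right of 0, and the farthest to the left is Bcl2l14, at -11.37 in control and -11.78 in knockout mice.

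Both receptors of the list were higher in Sertoli cells and the ligand Fasl in germ cells. Tnfrsf12a was 166-fold higher in Sertoli cells of control mice (7.38 ± 0.27 log2, adjusted p 1.02e-09) and 22.1-fold higher in knockout mice (4.47 ± 0.27, adjusted p 4.76e-08). Tnfrsf1a, the TNF receptor that signals through Tradd, was higher by 4.28 ± 0.23 in control and by 3.56 ± 0.23 in knockout mice. Its germ level was 0.10, -0.40 and -0.57 in control and -0.01, 0.78 and 0.45 in knockout mice, against 3.91 to 4.13 on the 6 Sertoli arrays. Fasl, the ligand of Fas, was at -2.26, -2.68 and -3.05 in control and at -3.14, -2.98 and -3.26 in knockout germ cells. None of the 6 Sertoli arrays showed it well above background. With the main processing, its mean germ-cell level was at least 14.6-fold higher in controls (adjusted p 5.61e-08). In knockouts it was at least 13.2-fold higher (adjusted p 8.66e-08). Over the alternative analyses the Sertoli minus germ difference ranged from -6.98 to -1.48 in control and from -5.73 to -2.54 in knockout mice. The control call held in 17 of 18 of them. Fasl was tested only because its germ arrays were bright, so these p-values are no separate support. For both receptors the fractions did not overlap.

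Adaptors and regulators of death receptors were higher in Sertoli cells in 5 of 5 cases in each genotype. Tradd, the adaptor of Tnfrsf1a, was higher by 3.50 ± 0.20 in control and 2.76 ± 0.20 in knockout mice. Ripk3, a kinase of necroptosis, was higher by 3.68 ± 0.26 and 3.58 ± 0.26. Ripk1, which relays survival and death signals, was higher by 2.35 ± 0.19 and 2.04 ± 0.19, and Fadd, which recruits Casp8, by 0.99 ± 0.16 and 0.78 ± 0.16. Cflar, the inhibitor of Casp8 activation, was higher by 4.26 ± 0.63 and 3.73 ± 0.63, but its probes disagreed. A further Cflar probe gave 3.08 ± 0.68 and 2.62 ± 0.68, and the last gave 0.56 ± 0.26 and 0.23 ± 0.26 and did not pass (adjusted p 0.0693 and 0.428, over single probes).

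All 3 initiator caspases were higher in Sertoli cells of both genotypes. Casp8 was higher by 3.75 ± 0.27 in control and 2.71 ± 0.27 in knockout mice, with levels of 0.68, -0.06 and 0.36 on the control Sertoli arrays. Casp9, which the apoptosome activates, was higher by 1.67 ± 0.19 and 1.53 ± 0.19. Casp2, linked to DNA damage responses, was 2.83-fold and 3.23-fold higher, with an SE of 0.17 on the log2 scale. Casp6 followed with 1.47 ± 0.40 and 1.76 ± 0.40.

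The inflammatory caspases, whose genes Casp1, Casp4 and Casp12 lie next to each other on chromosome 9 with 0 coding genes between neighbours, did not move together. Casp4 was higher in Sertoli cells by 4.31 ± 0.50 in control and 2.34 ± 0.50 in knockout mice. Casp12, a caspase of the endoplasmic reticulum, was higher by 4.83 ± 0.60 and 5.04 ± 0.60, but only 1 of 3 germ arrays in each genotype was well above background and it was tested only through its Sertoli arrays, so the size is uncertain. Its Sertoli level varied little, from -2.87 to -2.52 over the 6 arrays. Casp1, which matures interleukin-1β, was lower in Sertoli cells of control mice (-1.13 ± 0.40, adjusted p 0.0228). This call held in 13 of 19 alternative analyses, with differences from -2.04 to -0.46. In knockout mice Casp1 had -0.69 ± 0.40, which did not pass (adjusted p 0.142). Whether probes of these related genes bind each other's transcripts was not tested. Cflar and Casp8, neighbours on chromosome 1, were both on the Sertoli side, while Birc2 and Birc3, neighbours on chromosome 9, were on opposite sides.

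Of the 4 tested guardians, 3 were higher in Sertoli cells of both genotypes. Bcl2 was at -4.52, -4.75 and -4.57 in control germ and at -0.83, -1.27 and -0.93 in control Sertoli cells, a difference of 3.61 ± 0.17 (adjusted p 6.64e-09), and differed by 3.38 ± 0.17 in knockout mice. Bcl2l2 was higher by 1.95 ± 0.19 and 1.57 ± 0.19, and Mcl1 by 1.43 ± 0.15 and 1.39 ± 0.15. Bcl2l1, which encodes Bcl-xL, was at 3.96, 3.85 and 4.07 in control germ and at 4.23, 4.33 and 4.50 in control Sertoli cells (0.39 ± 0.17, adjusted p 0.0507), and had -0.01 ± 0.17 in knockout mice. Neither passed, and both depended on the scaling. With array-median scaling the values were 1.06 in control (adjusted p 0.0016) and 0.84 in knockout mice (0.0077), while with quantile normalization they were -0.04 (0.821) and -0.52 (0.0145) and with the deposited table -0.05 (0.800) and -0.52 (0.0138). The control value of 0.39 also passed with the all-array filter (0.0393) and with mouse as a replicate block (0.0397). The pore former Bak1 was higher in Sertoli cells by 2.38 ± 0.20 and 2.30 ± 0.20, and Bok by 4.45 ± 0.25 and 3.08 ± 0.25.

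BH3-only genes were divided. Bid, which caspase-8 cleaves to link both routes, was higher in Sertoli cells 5.75-fold in control and 4.001-fold in knockout mice, with an SE of 0.20 on the log2 scale, and Bmf by 1.89 ± 0.26 and 1.90 ± 0.26. Bcl2l11 was lower there, with differences of -2.65 ± 0.24 and -2.06 ± 0.24, as was Bik, with -1.79 ± 0.32 and -2.77 ± 0.32. Bad was lower too, with -0.37 ± 0.14 (adjusted p 0.028) and -0.45 ± 0.14 (adjusted p 0.0104). The call held in only 7 of 19 alternative analyses in control and 12 of 19 in knockout mice. Array-median scaling turned the differences to 0.30 and 0.40, and neither then passed. Hrk did not pass in either genotype. It was well above background on 0 of 3 germ and 1 of 3 Sertoli arrays of control mice, so no size is given.

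Bcl2l14, a less studied Bcl2 relative known for its expression in testis, had the largest difference of the 35 genes in both genotypes. Its germ level was 5.47, 5.09 and 4.95 in control and 4.61, 4.65 and 4.64 in knockout mice, and its Sertoli level lay between -7.52 and -5.60. The difference was -11.37 ± 0.31 in control (adjusted p 1.98e-10) and -11.78 ± 0.31 in knockout mice (adjusted p 1.92e-10), where only 1 of 3 Sertoli arrays was well above background, so that the size in knockout mice is uncertain. A further Bcl2l14 probe gave -5.44 in control and -5.63 in knockout mice, so that the size depends on the probe and the direction does not. In the upstream window printed above, CpG dinucleotides numbered 3 for Bcl2l14 and 7 for Fasl, against 15 for Tnfrsf12a, 31 for Birc2 and a median of 6 over all promoters.

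Among the IAPs, Xiap, which binds and blocks caspases directly, was higher in Sertoli cells by 3.98 ± 0.29 in control and 3.62 ± 0.29 in knockout mice. Birc3 (cIAP2) was higher by 2.42 ± 0.41 and 1.42 ± 0.41. Birc2 (cIAP1) was lower, with differences of -2.02 ± 0.32 and -1.43 ± 0.32 and with germ levels of 2.02, 1.93 and 1.32 and Sertoli levels of -0.13, 0.10 and -0.76 in control mice. Of the mitochondrial proteins, Diablo (Smac), which displaces caspases from IAPs, was lower in Sertoli cells, with -3.41 ± 0.20 (adjusted p 4.02e-08) and -3.08 ± 0.20 (adjusted p 1.03e-07). Its level was 4.65, 4.53 and 4.37 in control germ and 1.33, 1.16 and 0.83 in control Sertoli cells. Endog, a mitochondrial nuclease, was higher in Sertoli cells by 2.81 ± 0.17 and 2.49 ± 0.17, Aifm1, an oxidoreductase that can move to the nucleus, by 2.60 ± 0.24 and 1.97 ± 0.24, and Htra2, a serine protease, by 2.32 ± 0.22 and 2.18 ± 0.22. Diablo was the exception among the 4 mitochondrial genes.

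Of the genes, 10 had 11 further tested probes. In both genotype comparisons and the interaction, all 11 gave the same call as the gene's brightest probe. In each fraction comparison 9 of 11 did, and the exceptions were the last of these Cflar probes and the second Bad probe, which did not pass. Casp4 gave 1.88 with its second probe in germ cells against 2.01 with the first, and Tnfrsf1a gave 1.11 against 0.70, none past the threshold.

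**Figure D4:**
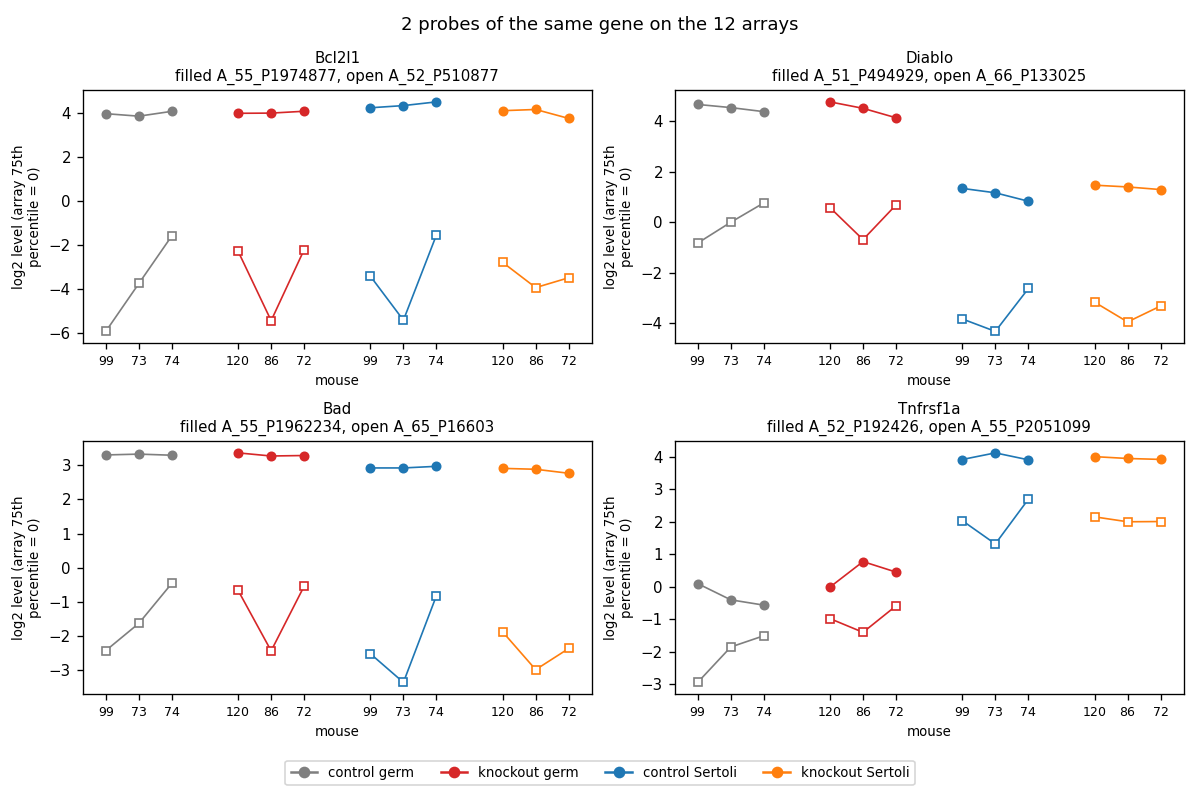
Log2 level relative to the array's 75th percentile for 2 probes of each of 4 genes on the 12 arrays, by mouse, with colours for the 4 groups. Filled circles are the brightest probe, open squares a further one, and lines join arrays of a group without implying an order. The brightest Bcl2l1 probe stays between 3.75 and 4.50 while the other ranges from -5.93 to -1.54.

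Other genes of the pathway, in lists of caspases, death-receptor signalling, Bcl2 relatives, IAPs, execution factors and lytic death, gave no call in either genotype comparison. The 2 of smallest p in germ cells belonged to death-receptor signalling. Tnfrsf1b, the second TNF receptor, had a difference of 2.47 ± 0.50 (adjusted p 0.0973) with 2 of 3 knockout and 0 of 3 control germ arrays well above background. The bound for its knockout level was 1.198-fold that of controls. It is uncertain, because the knockout mean includes an array not well above background. Tnf had 1.65 ± 0.47 (adjusted p 0.277). Tnfsf12, which encodes TWEAK, the ligand of the Tnfrsf12a product, differed by 0.17 ± 0.49 between genotypes in germ cells and by -0.08 ± 0.49 in the Sertoli fraction, and neither passed the test.

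Between fractions of control mice, where 39.8% of all genes were higher and 36.8% lower in Sertoli cells, the lists gave the following counts, from which nothing particular to a list is read. The 15 death-receptor genes held 6 higher and 2 lower in Sertoli cells, with Tnfrsf1b at least 116-fold and Tnfsf12 2.53 ± 0.49 higher on the log2 scale. Of 9 Bcl2 relatives tested, 3 were higher and 6 lower, among them Bcl2l15 with -5.51 ± 0.22. Of 8 execution factors 3 were higher and 3 lower: Panx1, a channel opened by caspases, was higher by 4.97 ± 0.23, while Cyct, the testis form of cytochrome c, was at least 1068-fold higher in germ cells. Of 9 tested genes of lytic death 6 were higher and 2 lower, with Zbp1, a nucleic-acid sensor, higher by 6.07 ± 0.45 and Nlrc4, an inflammasome sensor, at least 33.5-fold higher in germ cells. Of 6 IAP relatives tested 3 were higher and 1 lower.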

How the data were processed

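RNA of 12 cell fractions was hybridised to one-colour Agilent mouse arrays with Cy3-labelled cRNA, per the labels' protocols. Agilent Feature Extraction 10.7.3.1 read the images on an mm9 grid, per the file headers. The deposited intensity is the processed signal, background-subtracted and detrended within each array by that software, per the file headers. A deposited value table in log2 had a column median of 8.29 on each of the 12 arrays. Within each array it ranked probes like the processed signal (Spearman's rho at least 0.9999), so a larger value means more signal. Equal medians arise after quantile normalization, while the authors' exact scaling and centring stay unknown. The submitters' processing notes name limma.

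Control spots (1377 of 44397) and outlier spots were left out, spots of a probe were averaged, log2 was taken and each array's 75th percentile was subtracted. RefSeq accessions named 26055 of 39429 probes. Of these 39429, 30531 were well above background on all 3 arrays of a group and were kept, which gave 25028 genes, each by its probe of highest mean signal. Limma 3.58.1 (R 4.3.3) fitted 4 group means. On simulated data with 200 changed genes it was tested before use. The alternatives were normexp (offset 50, on the median spot signal, as the mean signal was not among the columns), quantile and median scaling, the deposited table, other filters and probe rules, blocks, subsets of mice and leaving out each replicate. Slide was taken from the file headers. Of the genes, those past the threshold, or otherwise the 6 of smallest p, are named per genotype comparison, and of pathway lists those past it or the 2 of smallest p. The members and lists were chosen with earlier results of these data known. Both fractions come from the same mouse, so the mouse numbers pair the arrays. Deviations from the group means correlated between both fractions of a mouse with r from -0.16 (mouse 99) to 0.46 (mouse 74). The consensus correlation was 0.12, and mouse as a replicate block left 1 gene higher in knockout germ cells.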

Additional observations from a re-analysis of the deposited data

Results flagged for a closer look

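For 2 genes, every knockout minus control difference within a slide was positive in germ cells and negative in Sertoli cells. The share of all genes with this pattern was not computed, so the count describes these genes and is no result about the list. Bok gave 0.31, 1.48 and 1.28 on the 3 slides in germ cells and -0.18, -0.50 and -0.38 in Sertoli cells. The difference between these effects was -1.38 on the log2 scale and did not pass limma's interaction test (adjusted p 0.571). Bcl2l1 gave 0.02, 0.14 and 0.00 in germ cells and -0.13, -0.18 and -0.75 in Sertoli cells, with a difference of -0.41 (adjusted p 0.9995). The germ values of Bcl2l1 were smaller than the SE of the fit, 0.17, and its germ difference had the other sign in 2 of 19 alternative analyses.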

How the results depend on the processing

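Of 3270 settings of single gene values, 3214 stayed on their side of the threshold, although in 169 of these an uncalled value changed sign. A call was lost in 40 and gained in 13, and 3 values past the threshold in either fit turned in sign, all with array-median scaling: Bad in control mice (0.30, Sertoli minus germ), Bad in knockout mice (0.40) and Bcl2l1 in knockout mice (0.84, adjusted p 0.0077). The 1 gene higher in knockout germ cells became 2 with quantile normalization and 2 with the deposited table, where Casp8 joined Tnfrsf12a (adjusted p 0.0381 and 0.0431). It became 0 when the 2 groups compared were fitted alone, 0 with mice of 8 months only, and 0 without the control mice titled het. Leaving out 1 mouse at a time gave 0 to 3: without knockout mouse 120 (replicate 1), Casp4 and Bok passed too, at adjusted p 0.0244 and 0.0335. Over its 19 alternatives Tnfrsf12a ranged from 2.50 to 3.09, with adjusted p from 0.0024 to 0.19. In the interaction, 0 genes lower became 1 when probes had to be well above background on all arrays, and leaving out replicates gave 0 to 1. The 8 genes lower in Sertoli cells of control mice became 5 with normexp. The replicate block with mouse gave 26 genes higher in Sertoli cells of control mice in place of 25 and changed no other count by over 1.5 times. Of 188 settings of counts, 175 stayed within 1.5 times. Causes were not tested. In all genes, 54 were called higher and 1 lower in knockout germ cells (98.2% higher). With normexp these were 6 and 1 (85.7%), with the 2 groups fitted alone 0 and 1, without the control mice titled het 1 and 1, with mice of 8 months only 1 and 0, and without control replicate 1 3 and 1. They were 2 and 1 without control replicate 2, knockout replicate 2 or knockout replicate 3. In the fraction comparisons the higher share rose from 52.0% to 65.0% in control and from 50.4% to 63.8% in knockout mice with the all-array filter, and to 64.5% in knockout mice with array-median scaling.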

Other observations

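Further probes of 4 genes varied together across arrays, in a way that their genes' brightest probes, except that of Cflar, did not. They were chosen after their values were seen, so the following is a description. After subtraction of group means, 5 probes (the second of Bcl2l1, Bad and Diablo and 2 of Cflar) gave 10 pairwise Pearson correlations from 0.908 to 0.992 over the 12 arrays, which share their normalization and, in part, slides. The second Bcl2l1 probe was at -5.93, -3.75 and -1.58 in control germ cells of mice 99, 73 and 74 and at -3.42, -5.42 and -1.54 in their Sertoli cells, while the first stayed between 3.85 and 4.50. The same array-wise course, with a correlation over 0.9 to the second Diablo probe, was found for 1648 of 24875 genes, or 6.63%. Among the brightest probes of the genes described here, Cflar had 0.92, while Xiap (-0.93), Birc2 (-0.90), Ripk3 (-0.82) and Casp6 (-0.81) ran the opposite way. The share of all genes with such negative correlations is not given here, so nothing particular to these 4 genes is read from them.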
